A study of Mus musculus with 24 samples.

Results

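PBX and MEIS proteins are homeodomain transcription factors of the TALE class, named for a short loop that lengthens their DNA-binding domain. The values below follow 7 of the 39017 genes in the count tables: the PBX family genes Pbx2, Pbx3 and Pbx4, the MEIS family genes Meis1, Meis2 and Meis3, and C79798, an antisense gene inside the span of Pbx3. Pbx3 and C79798 were chosen by their RNA level, which was lower in knockout than in WT TBR2+ cells, and the other members by belonging to the same families. The knockout-to-WT values of TBR2+ cells that chose these genes are therefore given as a description, with no test.

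The study sorted 3 populations from the mouse embryonic cerebral cortex at E15.5 by nuclear factors. PAX6+ cells are labelled as radial glia, TBR2+ cells as intermediate progenitors, and cells with neither (PAX6-TBR2-) as neurons. Each population was sequenced as 4 biological replicates from 2 genotypes, which makes 24 libraries in 6 groups. WT libraries carry Prdm16 flox/flox, and knockout (KO) libraries carry Emx1Ires-Cre together with Prdm16 flox/flox. All groups thus share the floxed alleles, while the Cre allele is in the KO groups only, so that Cre and the loss of Prdm16 cannot be told apart. PRDM16 is a zinc finger and SET domain protein that regulates transcription in radial glia, and Emx1-driven Cre acts in the progenitors of the dorsal telencephalon and in the cells they give rise to, not in cells that migrate in from elsewhere.

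Radial glia divide at the ventricle and give rise to intermediate progenitors, which in turn divide to make excitatory neurons. PBX proteins bind DNA jointly with MEIS or PKNOX proteins, and the pairs work with HOX proteins in the trunk and with other factors in the forebrain. MEIS2 is known for its part in striatal and olfactory bulb neurons, MEIS1 for blood stem cells and limb patterning, and PBX3 for brainstem and spinal cord circuits and for leukaemia. In the cortex, Pbx genes are known to take part in progenitor proliferation and in the identity of regions and layers.

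The 2 families can be told apart by the coding sequence of the recognition helix of the homeodomain, the part that lies in the major groove of DNA. The 36 bases are shown because the families share a frame and differ in the codon in capitals, which each gene's own family uses for its characteristic residue. They come from GENCODE M21 coding transcripts (build GRCm38, also called mm10), written 5′ to 3′ along the transcript.
Pbx2: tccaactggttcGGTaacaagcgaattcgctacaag
Pbx3: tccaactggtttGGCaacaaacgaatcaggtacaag
Pbx4: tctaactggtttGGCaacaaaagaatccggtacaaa
Meis1: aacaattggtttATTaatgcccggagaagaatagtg
Meis2: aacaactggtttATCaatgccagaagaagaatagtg
Meis3: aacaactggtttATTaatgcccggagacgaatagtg
Those of Pbx2 (chr17:34594804-34594839, plus strand), Pbx3 (chr2:34178304-34178339, minus strand) and Pbx4 (chr8:69870032-69870067, plus strand) lie in 1 exon each. Those of Meis1 (chr11:18885624-18905696, minus strand), Meis2 (chr2:115868776-115921679, minus strand) and Meis3 (chr7:16183860-16184065, plus strand) are joined across 1 intron. Within a family, 28 to 34 of the 36 bases were identical over 6 pairs of genes. Between the families, 13 to 19 were identical over 9 pairs.

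Pbx3 (ENSMUSG00000038718) spans chr2:34171457-34373142 on the minus strand, with 11 exon blocks and 10 annotated transcripts. C79798 (ENSMUSG00000084908) lies at chr2:34287771-34304440 on the plus strand and has 2 exons, each within a Pbx3 intron. A Pbx3 exon of 100 bases (chr2:34288753-34288852) lies between them, in the intron of C79798. Its first exon (chr2:34287771-34287891) has 121 bases and is shown because it is the exon of C79798 nearest to Pbx3's exons.
C79798 exon 1: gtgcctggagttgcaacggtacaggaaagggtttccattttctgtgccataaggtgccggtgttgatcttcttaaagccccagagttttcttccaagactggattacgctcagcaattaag
The exons of C79798 share 0 bases with those of Pbx3 and lie 862 and 13917 bases from the nearest Pbx3 exon. A read within the exons of one gene was therefore not also a read of the other gene's exons. The strand setting of the counting is not given in the sources used here. Total RNA can hold unspliced transcripts, and reads of a Pbx3 intron that fall on these exons would be counted to C79798 if strand was not used. Their part was not tested.

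**Figure D1:**
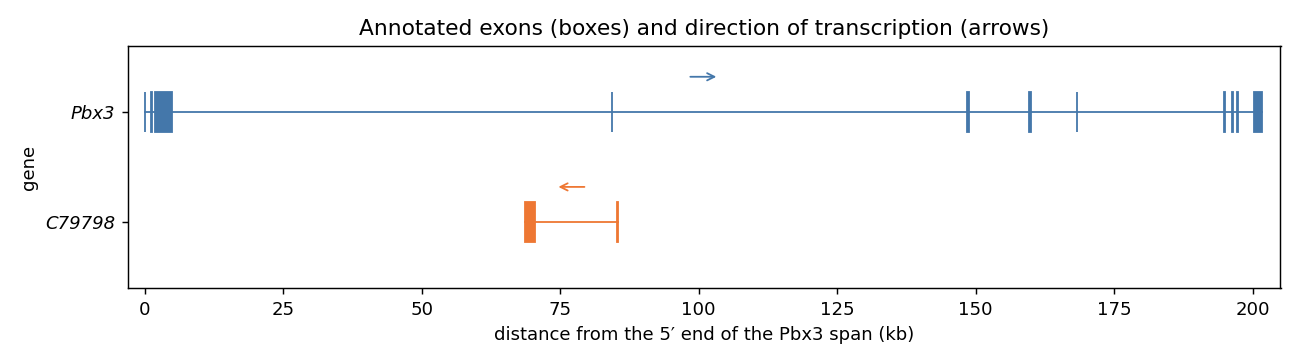
Annotated exons of Pbx3 and C79798 (boxes) along the distance from the 5′ end of the Pbx3 span in kb, with arrows for the direction of transcription. The exons of C79798 lie in introns of Pbx3 and run against it.

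The libraries held 4948977 to 30027954 counts in genes. All but WT PAX6-TBR2- replicate 4, the deepest, held at most 12554161. Mitochondrial genes took 24.7% to 33.1% of the counts in WT TBR2+ libraries and 30.5% to 39.3% in KO TBR2+ libraries. The RNA of each sorted factor was highest in the cells labelled with it. Pax6 was at 393 to 461 CPM in PAX6+ cells, 162 to 297 CPM in TBR2+ cells and 18.2 to 42.7 CPM in PAX6-TBR2- cells. Eomes, which encodes TBR2, was at 785 to 1008 CPM in TBR2+ cells and at most 112 CPM elsewhere. Neuronal RNA was also high in TBR2+ cells. A list of 10 pan-neuronal markers summed to 336 to 410 CPM in WT PAX6+ libraries. It summed to 4020 to 4855 CPM in WT TBR2+ and 5433 to 5930 CPM in WT PAX6-TBR2- libraries. Tubb3, of that list, was at 379 to 521 CPM in WT TBR2+ and 441 to 553 CPM in WT PAX6-TBR2- libraries. The part of neuronal RNA in the population differences below was not tested. Prdm16 itself ranged from 213 to 295 CPM in WT and from 160 to 227 CPM in KO PAX6+ cells (log2 fold change -0.43, edgeR adjusted p 0.058). Its groups overlapped in every population, and a count over all exons does not check the deletion, since the floxed exons are not named in the sources used here.

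A level is given as CPM, the counts of a gene per 1000000 counts of its library, scaled over the 24 libraries by the trimmed mean of M-values (TMM) in edgeR. A difference is a log2 fold change with its standard error (SE), tested by edgeR's quasi-likelihood test and called at a Benjamini-Hochberg adjusted p under 0.05 over all genes tested. Levels are compared between genes only per kilobase of exon. In sorted bulk cells, fewer cells of a type and less RNA per cell cannot be told apart. Whether replicates came from separate embryos or litters is not stated, so p-values measure the spread between these libraries.

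Meis2 was by far the most abundant of the 6 homeobox members in all 6 groups. Its mean level was 86.5 CPM per kb in WT PAX6+, 94.4 in WT TBR2+ and 44.4 in WT PAX6-TBR2- cells. Meis3 came next in WT TBR2+ cells at 16.2 CPM per kb, just above Pbx2 at 12.98, whereas in WT PAX6+ cells Pbx2 at 9.77 CPM per kb was above Meis3 at 4.30. The least abundant homeobox member was Meis1 in each group, at 0.383 to 1.53 CPM per kb.

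The 6 levels summed to 108 ± 7.62 CPM per kb in WT PAX6+ cells, 133 ± 15.6 in WT TBR2+ cells and 78.6 ± 7.36 in WT PAX6-TBR2- cells (SD, n = 4 each). In KO cells the sums were 113 ± 11.6, 123 ± 13.5 and 79.4 ± 5.17 CPM per kb (SD, n = 4 each), within 1 SD of WT in each population. Meis2 made up 78.2% to 80.7% of the sum in WT PAX6+ libraries, 68.9% to 73.9% in WT TBR2+ libraries and 52.7% to 61.6% in WT PAX6-TBR2- libraries. Pbx3 and Meis1, which had the largest fold differences between genotypes among these 6, were minor parts of the sum, at no more than 4.53 and 1.53 CPM per kb.

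**Figure D2:**
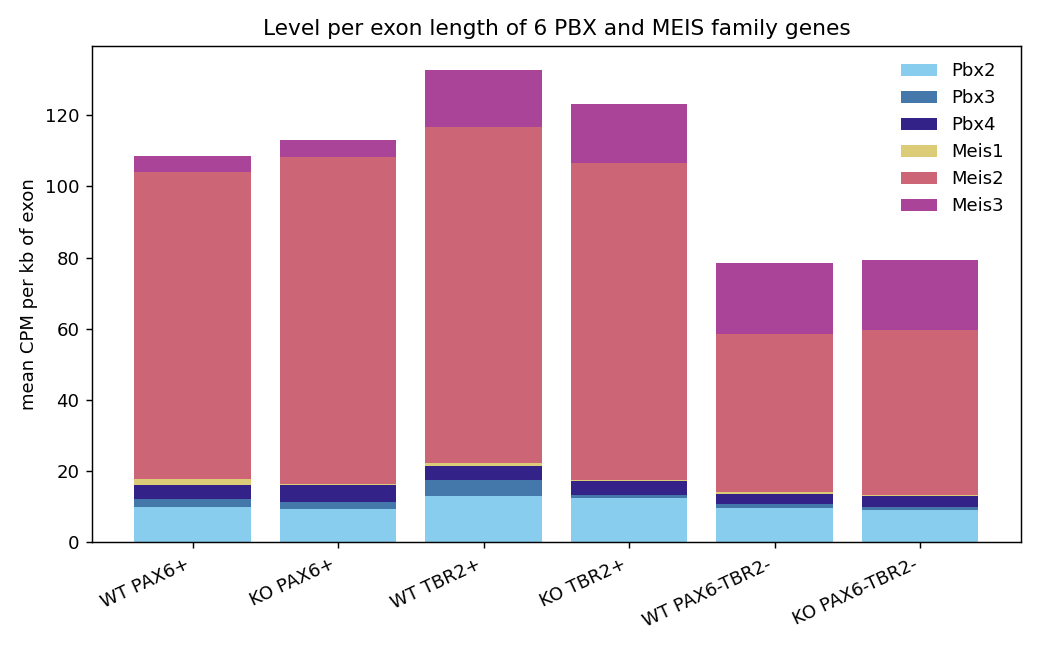
Mean level of 6 PBX and MEIS family genes in CPM per kb of exon (vertical axis), stacked for each of the 6 groups of 4 libraries. Meis2 is the largest block in each bar, and Meis3 is wider in TBR2+ and PAX6-TBR2- cells than in PAX6+ cells.

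Pbx3, a DNA-binding partner of MEIS proteins, had its highest level in WT TBR2+ cells. The 4 WT TBR2+ libraries had 34.9, 21.4, 33.7 and 20.6 CPM, and the 4 KO TBR2+ libraries 6.80, 5.58, 5.31 and 6.90 CPM. Every WT library was thus at least at 20.6 CPM and every KO library at most at 6.90 CPM, and the WT libraries fell in a higher and a lower pair. The log2 fold change of KO over WT was -2.15 ± 0.21 (SE), or 4.45-fold lower, a value that chose the gene. The background in this comparison was 1.76% of 12687 genes called (1.1% higher and 0.662% lower), and 6.75% had groups that did not overlap; Pbx3 and C79798 were chosen on these libraries, so nothing is read from their place against this background.

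In PAX6+ cells, Pbx3 was at 16.2, 12.4, 15.7 and 13.6 CPM in WT and at 12.1, 10.2, 8.90 and 12.3 CPM in KO libraries. The groups did not overlap, but by a narrow margin: the lowest WT library had 12.4 CPM and the highest KO library 12.3 CPM. The log2 fold change of -0.39 ± 0.16 (SE) did not pass the test (edgeR adjusted p 0.31). Eomes, the marker of the population in which Pbx3 was highest, fell in the same KO PAX6+ libraries by 0.74 on the log2 scale (edgeR adjusted p 0.0358), and its part in the Pbx3 values was not tested.

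In PAX6-TBR2- cells, Pbx3 was at 7.004, 3.49, 5.12 and 7.71 CPM in WT and at 5.87, 3.85, 8.22 and 6.38 CPM in KO libraries. These groups overlapped, and the log2 fold change was 0.04 ± 0.28 (SE, edgeR adjusted p 0.98). The test of whether the genotype difference itself differed between PAX6-TBR2- and PAX6+ cells gave 0.43 ± 0.32 (SE, edgeR adjusted p 0.95). This test was not made with TBR2+ cells, since those libraries chose the gene.

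Among WT populations, Pbx3 was lower in PAX6-TBR2- than in PAX6+ cells (log2 fold change -1.22 ± 0.22 SE, edgeR adjusted p 0.00013), or 2.33-fold lower, and these groups did not overlap. As a description, the log2 fold change was 0.97 ± 0.18 for WT TBR2+ over PAX6+ cells and -2.17 ± 0.24 for WT PAX6-TBR2- over TBR2+ cells (SE). Over the 6 groups the mean levels ran from 27.6 CPM in WT TBR2+ through 14.5 in WT PAX6+ and 10.9 in KO PAX6+ to 6.15 in KO TBR2+, 6.08 in KO PAX6-TBR2- and 5.83 in WT PAX6-TBR2- cells. Each of the first 3 groups was apart from the next in this order, and the last 3 overlapped. In WT, TBR2+ cells were above PAX6+ cells, and in KO they were below them.

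**Figure D3:**
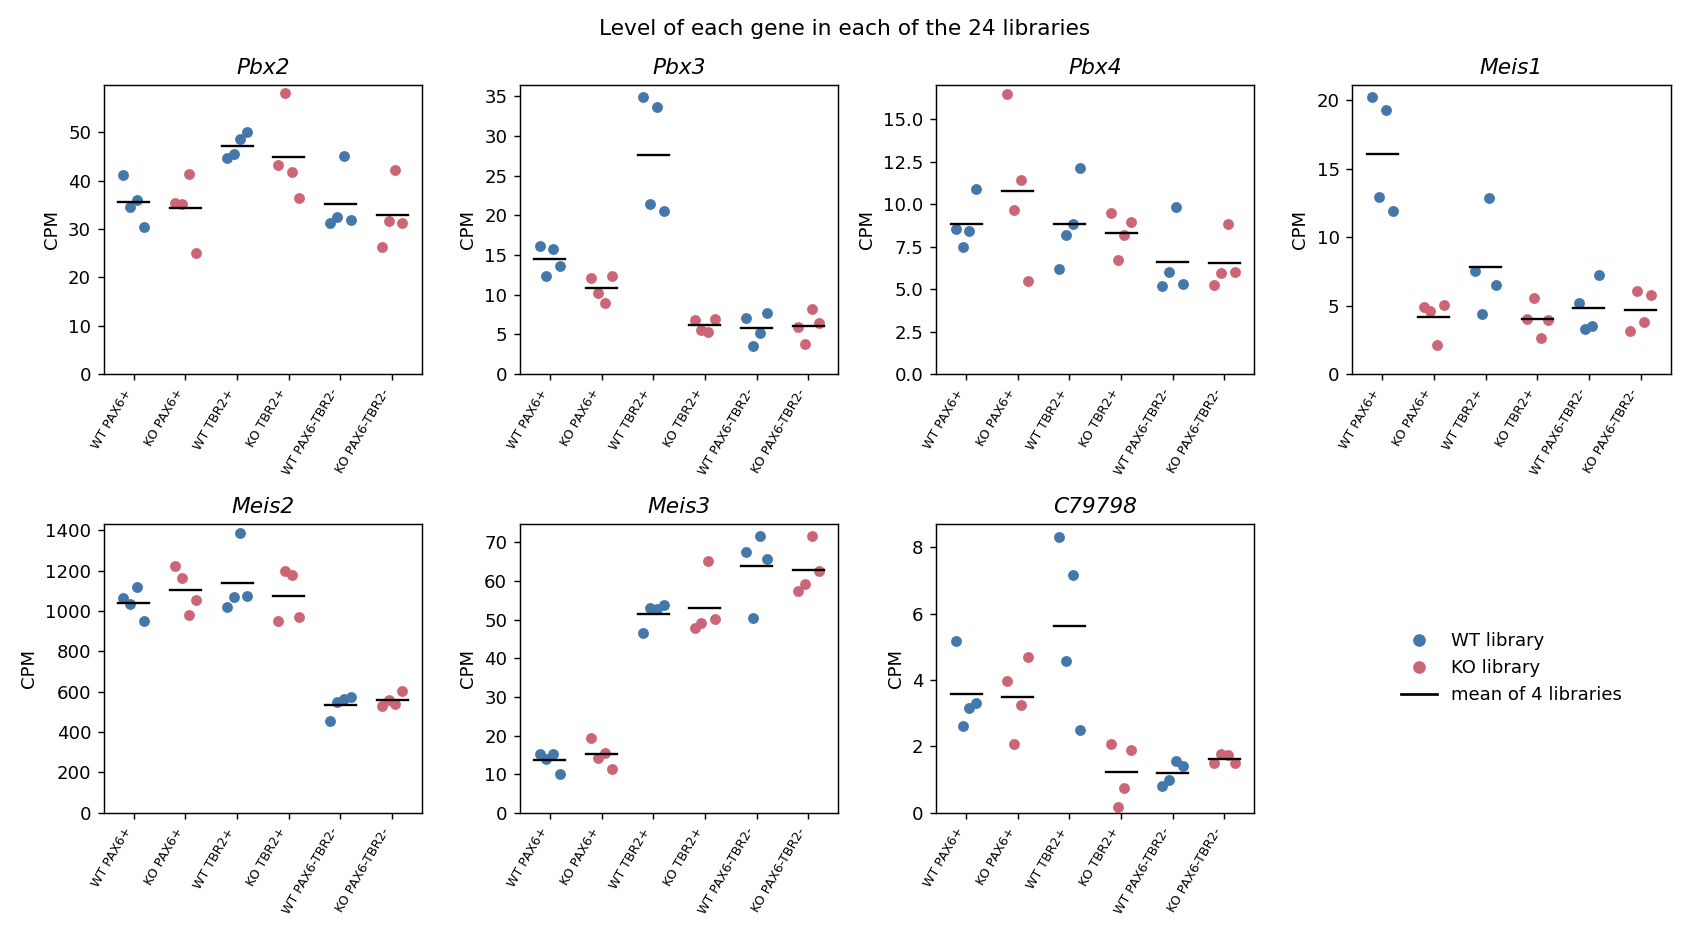
Level of each gene in CPM (vertical axis, starting at 0) in each of the 24 libraries, with WT libraries in blue, KO libraries in red and the mean of 4 libraries as a line. Pbx3 and C79798 are highest in WT TBR2+ cells and low in KO TBR2+ cells, and Meis1 is highest in WT PAX6+ cells, where all 4 KO libraries are at most at 5.03 CPM.

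C79798, the antisense gene, was thinly covered, with 1 to 59 counts per library. In TBR2+ cells it had 8.30, 4.58, 7.18 and 2.49 CPM in WT and 2.07, 0.164, 0.759 and 1.88 CPM in KO libraries. The groups did not overlap, but the lowest WT library was within 1 CPM of the highest KO library, and 1 KO library rested on 1 count. The log2 fold change was -2.16 ± 0.51 (SE), as large as that of Pbx3 with a wider error, and it too chose the gene.

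In the other populations the genotype groups of C79798 overlapped. In PAX6+ cells it had 5.19, 2.63, 3.15 and 3.32 CPM in WT and 3.96, 2.09, 3.26 and 4.68 CPM in KO libraries (log2 fold change -0.01 ± 0.31 SE, edgeR adjusted p 0.99). PAX6-TBR2- cells had C79798 under the filter on low counts when genotypes were compared, with 0.800 to 1.57 CPM in WT and 1.501 to 1.76 CPM in KO libraries. In WT the log2 fold change of PAX6-TBR2- over PAX6+ cells was -1.45 ± 0.32 (SE), given as a description. C79798 passed the filter in that comparison through its PAX6+ libraries, where it was higher. The WT PAX6-TBR2- libraries held 4 to 38 counts of it.

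The reads of C79798 were fewer than those of Pbx3 in each group, over 1793 against 6109 bases of exon. Per kb of exon, mean levels of C79798 and Pbx3 were 1.99 and 2.37 CPM in WT PAX6+ cells and 1.95 and 1.78 in KO. They were 3.14 and 4.53 CPM per kb in WT TBR2+ cells and 0.680 and 1.01 in KO. In PAX6-TBR2- cells they were 0.665 and 0.954 CPM per kb in WT and 0.908 and 0.995 in KO. Both genes were chosen for a lower level in KO TBR2+ cells, so their ratio there is a description. Summed over libraries, C79798 had 137 reads beside 669 of Pbx3 in WT TBR2+ cells, or 20.5 per 100 Pbx3 reads, and 31 beside 152 in KO TBR2+ cells, or 20.4 per 100. In PAX6+ cells the ratio was 24.1 in WT and 31.8 in KO, and in PAX6-TBR2- cells 19.7 and 26.5 per 100. Single libraries ranged from 2.94 to 45.8 per 100, at counts as low as 1. After each group's mean was removed, the Pearson r of the log2 levels of both genes was 0.46 over 24 libraries, which share their depth and RNA quality. Over the same libraries the r of Pbx3 with Meis1 was 0.49, so this value does not set C79798 apart.

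**Figure D4:**
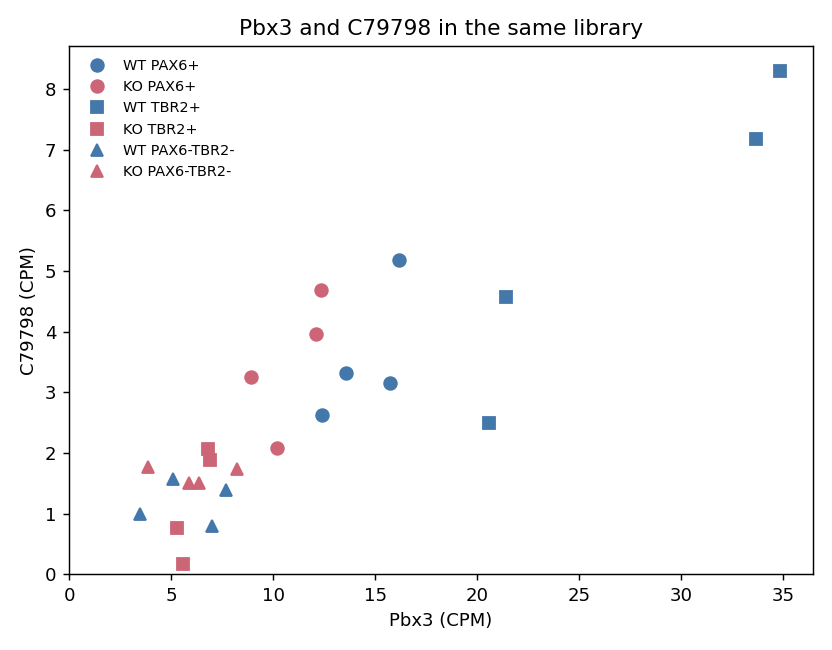
Level of Pbx3 (horizontal axis, CPM) and of C79798 (vertical axis, CPM) in the same library, for 24 libraries; colour gives the genotype and shape the population. WT TBR2+ libraries (blue squares) reach 34.9 CPM of Pbx3 and 8.30 CPM of C79798, and KO TBR2+ libraries (red squares) lie near the PAX6-TBR2- libraries.

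Pbx2 (ENSMUSG00000034673, chr17:34591266-34597400, plus strand), a broadly expressed PBX gene, overlapped between genotypes in each population and was not called where it was tested. In TBR2+ cells it was at 44.7 to 50.0 CPM in WT and 36.4 to 58.1 CPM in KO libraries, a log2 fold change of -0.07 ± 0.14 (SE). In PAX6+ cells the log2 fold change was -0.04 ± 0.15 (SE, edgeR adjusted p 0.96), and in PAX6-TBR2- cells -0.09 ± 0.16 (SE, edgeR adjusted p 0.94). Populations differed: WT TBR2+ libraries, at 44.7, 45.6, 48.6 and 50.0 CPM, were all above WT PAX6+ libraries, at 41.2, 34.6, 36.02 and 30.5 CPM. On the log2 scale the difference was 0.44 ± 0.11 (SE, edgeR adjusted p 0.0032).

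From TBR2+ to PAX6-TBR2- cells, WT Pbx2 fell by 0.40 on the log2 scale (edgeR adjusted p 0.0186), with 1 of 4 neuron libraries, at 45.1 CPM, inside the TBR2+ range. This call was lost without WT PAX6-TBR2- replicate 1 or replicate 4, with an adjusted p of up to 0.0736. Pbx2 shares 227 exon bases with Gpsm3 on the same strand, which was at 1.80 CPM or less in each library.

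Pbx4 (ENSMUSG00000031860, chr8:69832491-69872292, plus strand), known for its level in the testis, was low and varied between libraries. In KO PAX6+ cells it had 16.5, 9.66, 11.5 and 5.45 CPM, which spanned the WT values of 8.53, 7.47, 8.41 and 10.9 CPM (log2 fold change 0.30 ± 0.26 SE, edgeR adjusted p 0.75). The genotype values were -0.07 ± 0.22 in TBR2+ and 0.01 ± 0.25 in PAX6-TBR2- cells (SE). Between the 6 groups, each neighbour in the order of mean levels, from 10.8 CPM in KO PAX6+ to 6.51 CPM in KO PAX6-TBR2- cells, overlapped with the next. None of the 3 WT comparisons called it; without WT PAX6-TBR2- replicate 3, the library highest in Pbx4 in its group, PAX6-TBR2- cells were below PAX6+ cells by a log2 fold change of -0.63 (edgeR adjusted p 0.0171) and below TBR2+ cells by -0.66 (edgeR adjusted p 0.0429).

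Meis1 (ENSMUSG00000020160, chr11:18879817-19018985, minus strand), a DNA-binding cofactor of PBX and HOX proteins, fell in KO PAX6+ cells. The WT PAX6+ libraries had 20.2, 12.9, 19.3 and 11.9 CPM and the KO PAX6+ libraries 4.90, 4.64, 2.11 and 5.03 CPM. The lowest WT library was more than 6 CPM above the highest KO library. The log2 fold change was -1.93 ± 0.26 (SE, edgeR adjusted p 0.00022), or 3.81-fold lower, at 24 to 60 counts per KO library and 115 to 300 per WT library. It was the only member called there, of 7 tested, against 3.64% of 14212 genes (517, or 1045 with the replicate number as a block, under which Meis1 was at -1.92) called in either direction and 1.19% called lower. Pbx3 and Meis1 were the 2 members whose groups did not overlap, against 8.48% of all genes. Leaving out any of the 8 libraries gave -2.05 to -1.71, with an adjusted p of at most 0.0014. Meis1 shares 896 exon bases with Gm16140 on the opposite strand, which had at most 3 counts in a library.

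Other cell types' markers were also lower in some KO PAX6+ libraries, and their part in the Meis1 value was not tested. Of a list of Cajal-Retzius markers, neurons of the cortical surface, 4 of 8 were tested and none called, with a median log2 fold change of -1.31 against 0.00 over all genes; their summed level was 35.2 to 314 CPM in WT and at most 101 CPM in KO libraries. Endothelial and mural markers summed to 15.6 to 36.4 CPM in WT and 7.67 to 35.2 CPM in KO libraries, with 7 of 9 tested, none called and a median of -0.53. Of 6 meningeal markers, 2 were tested and Col1a2, a fibrillar collagen, was called lower (-2.06), at a KO mean under 1 CPM. The meningeal list summed to 3.32 to 4.87 CPM in WT and 1.23 to 3.86 CPM in KO libraries.

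Cortical interneuron markers summed to 31.9 to 58.8 CPM in WT and 28.0 to 36.3 CPM in KO PAX6+ libraries, with 7 of 14 in the tables tested and Gad2, which makes GABA, called lower (-1.68). Among markers of the striatum and lateral ganglionic eminence, Ppp1r1b, a phosphatase inhibitor of striatal neurons, was called lower (-3.63), at a KO mean under 1 CPM. Radial glia markers had 1 of 10 called, Slc1a3, a glutamate transporter, which was higher (0.43). Intermediate progenitor markers had 2 of 10 called, Eomes (-0.74) and Insm1 (-0.52), a zinc finger gene of basal progenitors, both lower. Upper-layer neuron markers had Unc5d (-1.26) called lower and Mdga1 (0.85) called higher, of 9 tested. Deep-layer neuron markers had Foxp2 (-0.94) called lower, of 8 tested. Microglial markers summed to at most 3.86 CPM in PAX6+ libraries, with C1qa and C1qb at 0 in both genotypes, and erythroid markers to 15.0 to 25.6 CPM in WT and 16.01 to 21.04 CPM in KO libraries, with none of either called.

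In TBR2+ cells Meis1 was at 7.55, 4.41, 12.9 and 6.48 CPM in WT and at 3.99, 5.58, 2.66 and 3.92 CPM in KO libraries. These groups overlapped through WT replicate 2 and KO replicate 2, and the log2 fold change was -0.93 ± 0.33 (SE), given as a description. Without WT TBR2+ replicate 3 it was -0.59, and without any other library it was between -1.14 and -0.78. In PAX6-TBR2- cells Meis1 had 5.20, 3.32, 3.54 and 7.27 CPM in WT and 3.16, 6.09, 3.79 and 5.76 CPM in KO libraries. The groups overlapped over most of their ranges (-0.08 ± 0.30 SE, edgeR adjusted p 0.97). Of the 6 members that passed the filter there, none was called and none had groups apart, against 0.00774% of 12928 genes called (1 gene, with 854 at an unadjusted p under 0.05 and 24 called by DESeq2) and 4.01% of genes with groups apart.

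For Meis1, the log2 fold change of KO over WT was near 0 in PAX6-TBR2- cells and strongly negative in PAX6+ cells, and the first minus the second was 1.84 ± 0.42 (SE, edgeR adjusted p 0.0403), where 0.775% of 15102 genes were called, 0.199% higher and 0.576% lower. It was the only member called in that test of 7. The call was lost with limma-voom (adjusted p 0.0977) and in 11 of 16 fits that left out 1 library, with an adjusted p of up to 0.119. It was kept without WT PAX6+ replicate 2 or 4, KO PAX6+ replicate 4, WT PAX6-TBR2- replicate 4 or KO PAX6-TBR2- replicate 1, and lost without any of the others. Its size was 1.61 to 2.19 in those fits.

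WT Meis1 was highest in PAX6+ cells. Its log2 fold change was -1.02 ± 0.26 for TBR2+ over PAX6+ cells (SE, edgeR adjusted p 0.0026) and -1.60 ± 0.26 for PAX6-TBR2- over PAX6+ cells (SE, edgeR adjusted p 4.8e-05). Groups of the first comparison overlapped through WT TBR2+ replicate 3, at 12.9 CPM, and groups of the second did not overlap. From TBR2+ to PAX6-TBR2- cells the change of -0.60 ± 0.32 (SE) did not pass (edgeR adjusted p 0.14), except without WT PAX6-TBR2- replicate 4, the deepest library (-0.92, edgeR adjusted p 0.0432). KO PAX6+ cells, at a mean of 4.17 CPM, were in the range of both PAX6-TBR2- groups, whose means were 4.83 CPM in WT and 4.70 CPM in KO.

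Meis2 (ENSMUSG00000027210, chr2:115863064-116065839, minus strand) overlapped between genotypes and differed between populations. In PAX6+ cells it was at 1063, 1037, 1119 and 948 CPM in WT and at 1224, 1165, 978 and 1054 CPM in KO libraries (0.10 ± 0.09 SE on the log2 scale, edgeR adjusted p 0.76). In TBR2+ cells WT libraries had 1019, 1071, 1386 and 1071 CPM and KO libraries 948, 1196, 1180 and 969 CPM (-0.08 ± 0.12 SE). Both pairs of groups overlapped. With 2265 or more counts in each library, Meis2 was the best measured member.

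PAX6-TBR2- neurons had less Meis2, with 453, 547, 566 and 572 CPM in WT and 531, 556, 538 and 601 CPM in KO libraries (0.07 ± 0.09 SE, edgeR adjusted p 0.90). The log2 fold change of WT PAX6-TBR2- cells was -0.92 ± 0.10 over WT PAX6+ cells (SE, edgeR adjusted p 6.6e-07) and -1.06 ± 0.11 over WT TBR2+ cells (SE, edgeR adjusted p 1.7e-06), with no overlap in either comparison. TBR2+ and PAX6+ cells were not called apart (0.16 ± 0.11 SE, edgeR adjusted p 0.22). Interneuron markers, a mark of cells that come from outside the cortex, summed to 465 to 1309 CPM in WT PAX6-TBR2- libraries against 31.9 to 58.8 CPM in WT PAX6+ libraries, and their part in the Meis2 difference was not tested.

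Meis3 (ENSMUSG00000041420, chr7:16175090-16186504, plus strand), the third MEIS gene, was lowest in PAX6+ cells and highest in PAX6-TBR2- cells. WT PAX6+ libraries had 15.3, 14.0, 15.2 and 10.1 CPM, WT TBR2+ libraries 46.5, 53.1, 52.7 and 53.7 CPM, and WT PAX6-TBR2- libraries 67.4, 50.3, 71.8 and 65.6 CPM. Every TBR2+ and PAX6-TBR2- library was above every PAX6+ library, and 1 PAX6-TBR2- library lay inside the TBR2+ range. On the log2 scale Meis3 rose by 1.94 ± 0.14 from PAX6+ to TBR2+ cells (SE, edgeR adjusted p 1.4e-09) and by 2.26 ± 0.15 from PAX6+ to PAX6-TBR2- cells (SE, edgeR adjusted p 3e-09).

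The further step of Meis3 from TBR2+ to PAX6-TBR2- cells was 0.34 ± 0.12 (SE, edgeR adjusted p 0.0285). That call was lost with the replicate number as a block (adjusted p 0.0652), with all 24 libraries in 1 fit (0.0614) and in 6 of 8 fits that left out 1 library (up to 0.0954). It was kept without WT TBR2+ replicate 4 or WT PAX6-TBR2- replicate 2. Between genotypes Meis3 was at 0.16 ± 0.18 in PAX6+ (edgeR adjusted p 0.84), 0.05 ± 0.11 in TBR2+ and -0.01 ± 0.12 in PAX6-TBR2- cells (edgeR adjusted p 0.99), all log2 fold changes with SE. KO libraries had 11.4 to 19.5, 47.9 to 65.1 and 57.5 to 71.6 CPM in these populations.

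**Figure D5:**
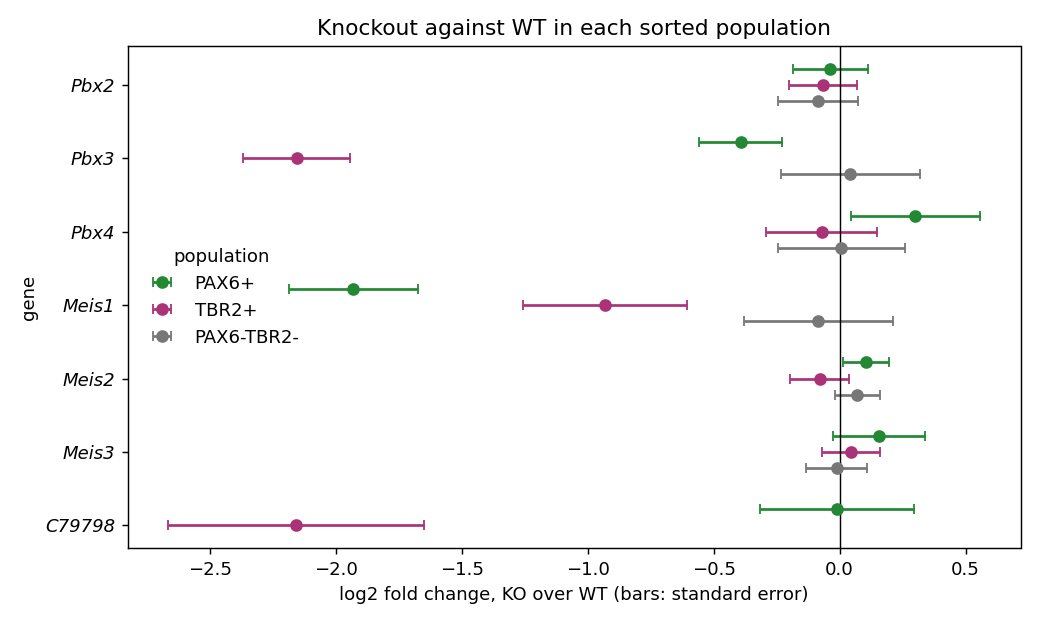
Log2 fold change of KO over WT (horizontal axis, bars give the SE) of the 7 genes (vertical axis) in each sorted population; C79798 was under the filter in PAX6-TBR2- cells. Pbx3 and C79798 are near -2.15 in TBR2+ cells, and Meis1 is at -1.93 in PAX6+ and -0.93 in TBR2+ cells, while most other points lie near 0.

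Population differences were common among all genes, which bounds what the members' calls can be read against. Between WT TBR2+ and PAX6+ cells 63.2% of 13550 genes were called (31% higher, 32.2% lower), and of the 5 members tested 2 were higher (Pbx2, Meis3) and 1 lower (Meis1). From WT TBR2+ to PAX6-TBR2- cells 49% of 12868 genes were called (25.6% higher, 23.4% lower), and of the 5 members tested Meis3 was higher and Pbx2 and Meis2 lower. From WT PAX6+ to PAX6-TBR2- cells 66.6% of 14308 genes were called (32.9% higher, 33.7% lower), and of 7 members 1 was higher (Meis3) and 4 lower (Pbx3, Meis1, Meis2, C79798). In that comparison 5 of 7 members, C79798 among them, had groups apart, against 61.5% of all genes. C79798 passed the filter there through its PAX6+ libraries, so its place in both counts is a description. Among the 5 members tested between TBR2+ and PAX6+ cells, Pbx2 and Meis3 had groups apart, against 57.1% of all genes. Among the 5 tested between PAX6-TBR2- and TBR2+ cells, only Meis2 had groups apart, against 44.7% of all genes. Each sorted population carries its own prefix in the library names, so a difference between library sets and one between populations cannot be told apart.

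Other genes of the TALE class were few in these cells: of 11 (PKNOX, TGIF, MKX and IRX genes) 4 passed the filter in the PAX6+ genotype comparison. Pknox2, which binds PBX proteins in place of MEIS, rose by 0.62 ± 0.13 (SE, edgeR adjusted p 0.0104), and Tgif1, a repressor in the retinoic acid and TGF-beta pathways, rose by 0.56 ± 0.13 (SE, edgeR adjusted p 0.0187) on the log2 scale in KO PAX6+ cells. Both others tested, Pknox1 and Tgif2, were not called; the list had a median of 0.39 against 0.00 over all genes and 2.45% of all genes called higher. The summed level of the list was 136 to 163 CPM in WT and 188 to 205.4 CPM in KO PAX6+ libraries, which did not overlap. None of the tested members of this list was called in TBR2+ (4 tested) or PAX6-TBR2- cells (5 tested).

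Across WT populations the PKNOX and TGIF genes differed too. Tgif1 was lower in TBR2+ than in PAX6+ cells by a log2 fold change of -1.30 and lower again in PAX6-TBR2- than in TBR2+ cells by -1.85. Tgif2, its close relative, had values of -0.50 and -1.18 in these comparisons, and Pknox2 0.32 and -0.52. Mkx, a gene known for tendon, was higher in PAX6-TBR2- than in TBR2+ cells (3.70). Its mean was under 1 CPM in WT TBR2+ cells, and it passed the filter through its PAX6-TBR2- libraries. All of these differences were called by edgeR at an adjusted p under 0.05.

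HOX genes, the classic partners of PBX and MEIS in the trunk, were near the limit of detection. Of 38 HOX genes with a row, 19 had no count in any library, none passed the filter in any genotype comparison, and the summed level of the list was at most 1.97 CPM in a library. Of 20 other partners of PBX and MEIS proteins (co-repressors, co-activators, SMAD, DLX and other factors), 16 were tested in PAX6+, 15 in TBR2+ and 16 in PAX6-TBR2- cells, and none was called between genotypes. Their median log2 fold changes were -0.08, 0.03 and 0.02, against 0.00 over all genes in each population.

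Among 10 reported targets of MEIS and PBX proteins, 7 were tested in each population. Dcx, a microtubule protein of migrating neurons, was called lower in KO PAX6+ cells (-1.01 ± 0.21 SE, edgeR adjusted p 0.0081), and no other target was called between genotypes in any population. The Dcx genotype difference (KO over WT, log2) in PAX6-TBR2- cells minus that in PAX6+ cells was 1.11 ± 0.25 (SE, edgeR adjusted p 0.0323). Pan-neuronal markers, a list that also holds Dcx, had 1 of 9 tested genes called lower, Dcx, and 1 higher, Syt1, the synaptotagmin of synaptic vesicles (1.36), in these libraries.

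TBR2+ libraries, in which Pbx3 and C79798 were chosen, differed between genotypes in layer markers as well. Of 9 deep-layer neuron markers tested, Sox5 (0.80), Fezf2 (0.71) and Nr4a2 (0.64), all transcription factors, were called higher in KO cells. Of 9 upper-layer markers tested, Pou3f2 (-0.84), Cux2 (-0.59) and Unc5d (-0.55) were called lower and Rorb (0.64) higher. Striatal markers had 2 of 6 called, Penk (1.71) and Ebf1 (1.04), both higher, and their summed level was 35.2 to 45.1 CPM in WT and 61.5 to 71.7 CPM in KO libraries. Radial glia markers had 1 of 8 called, Ptprz1 (1.35), higher. Intermediate progenitor markers had none of 10 called, at 2233 to 2584 CPM in WT and 1902 to 2376 CPM in KO libraries. Cajal-Retzius markers had none of 8 tested called, with all 8 above 0 and a median log2 fold change of 0.58 against 0.00 over all genes; they summed to 138 to 560 CPM in WT and 390 to 586 CPM in KO libraries. The part of these lists, and of the higher mitochondrial share in KO TBR2+ libraries, in the Pbx3 and C79798 values was not tested.

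The genes whose log2 level was most like that of Pbx3 over the 24 libraries were Sorl1 (r = 0.83), a sorting receptor, and Pou2f1 (0.80), a POU-domain transcription factor, ahead of C79798, which came at rank 3 of 15090 genes (0.80). The 24 libraries include the TBR2+ libraries on which both Pbx3 and C79798 were chosen, so nothing is read from that rank. Nradd (0.79), 2410015M20Rik (0.78) and Lima1 (0.77) followed. Sorl1 had mean levels of 334 ± 79.0 CPM in WT and 165 ± 29.0 CPM in KO TBR2+ cells, and 214 ± 15.98 and 167 ± 5.46 CPM in WT and KO PAX6+ cells (SD, n = 4 each). Pou2f1 had 300.4 ± 40.5 CPM in WT and 212 ± 12.8 CPM in KO TBR2+ cells (SD, n = 4 each). These correlations cover groups as well as libraries, are a description with no test, and rest on libraries that share depth and sorting. Pbx3 had an r of 0.60 with Meis2, 0.55 with Meis1 and -0.34 with Meis3.

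For Meis2 the most alike genes were Hist1h1e (0.97), a linker histone, the RNA gene Mir99ahg (0.96), Zfp219 (0.96) and Zbtb20 (0.96), both zinc finger factors, and Shisa2 (0.95). Like Meis2, Zbtb20 was at 1702 ± 173 CPM in WT PAX6+ and 1946 ± 299 CPM in WT TBR2+ cells and lower, at 358 ± 35.0 CPM, in WT PAX6-TBR2- cells (SD, n = 4 each). No other homeobox member was among the first 2000 genes for Meis2: Pbx3 came at rank 2514 and Pbx4 at rank 3403.

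RefSeq promoter windows of 300 bases around the start site (GRCm38.p6) were held for 5 members, Pbx2, Pbx4, Meis1, Meis2 and Meis3. The MEIS letters TGACAG were in none of the 5 on either strand, and in 19.2% of 32851 windows. The PBX letters TGATTG were in that of Pbx4 and in 14.0% of windows.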

How the data were processed

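Total RNA of sorted cells was amplified by single primer isothermal amplification (SPIA) before library preparation, per the labels' protocols, and has no molecular identifiers, so precision covers reads, not molecules. FastQC, cutadapt, STAR, featureCounts and DESeq2 with build mm10 are named per the submitters' processing notes, without versions. The deposited gene counts, 2 lanes per library, were summed over lanes. The authors' normalized tables hold counts divided by a size factor per library (signal), from which whole reads were recovered (100% of values at a tolerance of 1e-06) and used as an alternative. These equalled the raw counts in 8 of 8 PAX6+ columns, and totalled 1.44 to 1.70 times the raw counts in the other groups.

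Of 39017 identifiers, 37693 were named with GENCODE M21. Counts were filtered (filterByExpr), scaled by TMM and tested by edgeR 4.0.16 (R 4.3.3) within each comparison; DESeq2 1.42.0, limma 3.58.1 (voom) and other settings were alternatives, and the code was tested on simulated data. Pairs of libraries of a group differed by more than sampling noise (chi-square per degree of freedom 5.65 to 45.5, against 0.976 to 1.02 for lanes). Same-numbered WT and KO libraries deviated together in each PAX6+ pair (r 0.18, 0.15, 0.16 and 0.33), so the numbers were taken to pair them there. The main tests did not use this pairing, and the replicate number entered as a block in an alternative fit only.

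The members and lists were chosen with earlier results of these data known. Named genes are all members, at most 4 called genes of each list by size of change, the 5 genes most like Pbx3 and Meis2, and Prdm16. Correlations used log2 levels with a pseudocount of 0.5 CPM (deviations from group means) or a prior count of 2 (likeness over genes). A gene of the striatal list is not reported here.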

Additional observations from a re-analysis of the deposited data

Results flagged for a closer look

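In 6 of 42 groups of 4 libraries, the highest or lowest library lay far from the nearest of the others for its group's range (Dixon's test at 95%); chance flags about 1 in 20 groups. WT PAX6-TBR2- replicate 3 was highest in its group for Pbx2, at 45.1 CPM, and for Pbx4, at 9.84 CPM. KO PAX6+ replicate 3 was lowest for Meis1, at 2.11 CPM, and WT TBR2+ replicate 3 was highest for Meis2, at 1386 CPM. For Meis3, WT TBR2+ replicate 1 was lowest, at 46.5 CPM, and KO TBR2+ replicate 3 was highest, at 65.1 CPM.

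For Meis1, the log2 fold change of KO over WT was -0.08 in PAX6-TBR2- cells and -1.93 in PAX6+ cells, and the first minus the second was 1.84 (edgeR adjusted p 0.0403), a test of the difference itself. That call was lost with limma-voom (adjusted p 0.0977) and in 11 of 16 fits that left out 1 library (up to 0.119).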

How the results depend on the processing

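Of 748 alternative values of the members' fold changes, 684 were labelled as kept, 22 no longer passed, 3 newly passed and 39 changed sign. For tested values, kept means the same direction and side of the threshold. Values given as a description, such as KO over WT in TBR2+ cells, were not held to the threshold. Pbx2, Pbx4, Meis2 and Meis3 changed sign there in some fits, and these changes are not among the 39. Recovered reads of PAX6+ libraries equalled the raw counts, so those alternatives repeat the main values. The fall of Meis1 in KO PAX6+ cells passed in every alternative, at -1.97 to -1.92 outside the fits that left out a library. With the replicate number as a block it was called as well. Of 252 alternative values of levels, 215 moved by less than 1 SD and 37 were labelled as moved. Most of the 252 were group means that left out a library. In groups of this size such a mean cannot move by 1 SD, so these values were kept whatever the data. All 37 that moved thus came from the other settings, and the 215 do not measure how stable the levels are.

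Genes called between genotypes numbered 517 in PAX6+ cells (1045 with the replicate block, 358 to 529 without 1 library), 223 in TBR2+ cells (728 without a filter, 357 with DESeq2, 720 with the replicate block, 121 to 420 without 1 library: 137 and 121 without WT TBR2+ replicate 1 or 3, and 420, 139 and 142 without KO TBR2+ replicate 1, 2 or 3) and 1 in PAX6-TBR2- cells (38, 24, 153 and 1 to 3 in the same order, the last with 2 and 3 without WT or KO PAX6-TBR2- replicate 4, and 6 with all 24 libraries in 1 fit). The knockout effect in PAX6-TBR2- cells minus that in PAX6+ cells was called in 117 genes (219 without a filter, 332 with the replicate block, 84 to 109 without 1 library). WT populations called 8080 to 8487 (TBR2+ against PAX6+), 5711 to 6391 (PAX6-TBR2- against TBR2+) and 9192 to 9694 genes (PAX6-TBR2- against PAX6+) without 1 library. The cause was not tested. The same-number correlations were 0.31, 0.05, 0.04 and 0.29 in TBR2+ and 0.22, 0.06, 0.23 and 0.26 in PAX6-TBR2- cells. In both populations some values were below all PAX6+ values and others were within their range. Whether the numbers pair libraries there is therefore not known. Over the 3 populations, the own number was highest in 11 of 12 libraries, all but replicate 2 of PAX6-TBR2- cells. By that measure TBR2+ cells did not differ from PAX6+ cells.

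Values near 0 changed sign. Between genotypes in PAX6-TBR2- cells these were Pbx3 (-0.035 with limma-voom, -0.012 with recovered reads), Pbx4 (-0.0085 without a filter, -0.025 with recovered reads) and Meis3 (0.0082 with recovered reads); in WT they were Pbx4, TBR2+ over PAX6+ (-0.019 without a filter), and Pbx2, PAX6-TBR2- over PAX6+ (-0.029 without a filter). Without 1 library, the range was -0.14 to 0.084 for Pbx2 and -0.19 to 0.23 for C79798 in PAX6+ cells, and -0.22 to 0.02 for Pbx2, -0.21 to 0.11 for Pbx4, -0.13 to 0.03 for Meis2 and -0.06 to 0.09 for Meis3 in TBR2+ cells. In PAX6-TBR2- cells it was -0.23 to 0.049 for Pbx2, -0.13 to 0.24 for Pbx3, -0.18 to 0.26 for Pbx4, -0.22 to 0.24 for Meis1 and -0.10 to 0.043 for Meis3. In WT it was -0.14 to 0.18 for Pbx4 (TBR2+ over PAX6+) and -0.10 to 0.094 for Pbx2 (PAX6-TBR2- over PAX6+), and for the knockout effect in PAX6-TBR2- minus that in PAX6+ cells -0.19 to 0.091 for Pbx2 and -0.095 to 0.014 for Meis2. C79798, at 1 to 59 counts per library, is limited by depth.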
